A study of Rattus norvegicus with 12 samples.

Results

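Retinal transcripts of 4 secreted growth factors, *Fgf2*, *Bdnf*, *Igf1* and *Vegfa*, were followed from post-natal day 21 (p21) to p60 in degenerating RCS rat retinas. They were chosen as factors that protect retinal neurons or act on retinal vessels, and they are 4 of the 32883 genes in the count tables. Over all retinas *Fgf2* was 8.96-fold higher at p60, *Bdnf* was 1.42-fold higher, *Vegfa* was at 0.684 of its p21 level, and *Igf1* did not pass the test at 0.955 (n = 6 libraries per age).

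The RCS rat lacks a working *Mertk* receptor in the retinal pigment epithelium, so shed photoreceptor outer segments are not cleared and the photoreceptors die. The study sequenced whole retinas in 3 libraries of immunocompetent RCS rats (genotype RCS-p+, labelled WT and male) and 3 of athymic RCS rats (genotype RCS-p+/Foxn1mu, labelled female) at p21, and the same numbers at p60. All 4 groups therefore carry the RCS degeneration, WT does not mean a healthy retina, and no group without degeneration was among the samples. The labels do not say whether a library came from 1 animal, and line and labelled sex coincide, so they cannot be told apart. If the libraries of a group were not separate animals, the p-values measure only the spread between these libraries.

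Growth factors of this kind signal through receptor tyrosine kinases. Fibroblast growth factor 2 (*Fgf2*) acts on FGF receptors, has long been known to be induced in stressed or injured retina, and delays photoreceptor death when given to the eye. Brain-derived neurotrophic factor (*Bdnf*) acts on TrkB and sustains retinal ganglion cells. Insulin-like growth factor 1 (*Igf1*) acts on the IGF1 receptor in neurons and vessels, and vascular endothelial growth factor A (*Vegfa*), which responds to hypoxia, drives the growth and permeability of retinal vessels and also supports neurons.

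Each library had between 13852516 and 16725355 counts. Pairs of libraries of the same group differed by more than sampling noise (chi-square per degree of freedom between 4.06 and 23.3), so each was treated as a separate sample. Counts on the Y chromosome, as CPM (counts scaled to a common library size), were 229 to 323 in the 6 libraries labelled male. They were 269 to 328 in libraries 4, 5 and 22, which are labelled female, and 8.79 to 23.2 in the other female-labelled libraries, 6, 23 and 24. The labelled sex of libraries 4, 5 and 22 is thus in doubt. Libraries 4 and 5 are from p21 and library 22 is from p60, so Y counts were not balanced between the ages in the athymic line. A set of 48 genes was chosen for being more than 4-fold higher in libraries 4 and 19 than the median of other libraries of the same age. Library 24 was kept out of the p60 median. The set stood highest in libraries 4, 19 and 24, with summed normalized CPM of 19054, 8628 and 4250, against 293 to 3328 elsewhere. For libraries 4 and 19 this follows from the choice, and library 24 was not far above library 6, at 3328. Retinal marker genes were not examined, since the tables list Ensembl identifiers without symbols. In a whole retina, fewer cells of a type and less RNA per cell cannot be told apart. For a gene that rose, a larger share of some cells and more RNA per cell cannot be told apart either.

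*Fgf2* (ENSRNOG00000017392, Rnor_6.0 chromosome 2 from 124081072 to 124134681, plus strand, 4 exons) was the growth factor that changed most. At p21, the immunocompetent libraries 1, 2 and 3 held 15, 30 and 23 counts, and the athymic libraries 4, 5 and 6 held 16, 12 and 22. At p60, the immunocompetent libraries 19, 20 and 21 held 142, 120 and 236 counts, and the athymic libraries 22, 23 and 24 held 223, 218 and 297. Every p60 retina was above every p21 retina. As normalized CPM, which scales counts to library size and composition, the immunocompetent mean of *Fgf2* was 1.65 ± 0.428 at p21 and 10.6 ± 3.68 at p60. The athymic mean was 1.15 ± 0.254 and 15.1 ± 3.18 (SD over 3 libraries in each group).

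**Figure D1:**
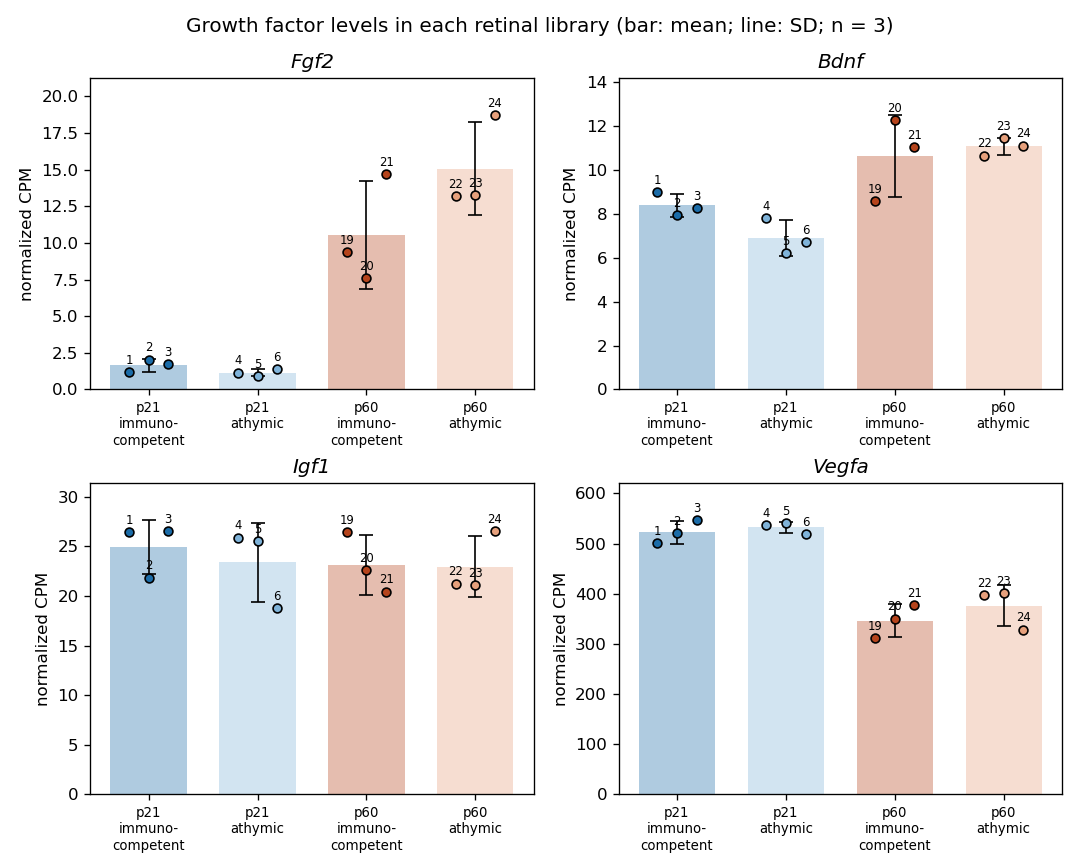
Normalized CPM of each growth factor in the 12 retinal libraries, which are numbered as in the sample titles (points: libraries; bars: mean; lines: SD; n = 3 per group). For *Fgf2*, the 6 p60 libraries lie between 7.62 and 18.7, all above the p21 libraries at 0.897 to 2.03. *Vegfa* separates the ages in the opposite direction and *Igf1* overlaps at all ages.

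Over all 12 retinas, *Fgf2* changed by 3.16 on the log2 scale (standard error 0.245, adjusted p = 7.32e-08, edgeR's quasi-likelihood test), an 8.96-fold rise with a 95% interval of 6.22 to 12.9. In a retina where 62% of the 16069 genes tested differed between the ages, a significant call alone says little, but the size of the change was unusual, since 25 genes, *Fgf2* among them, rose by as much or more. The exact permutation test, which shuffled all 12 libraries without regard to line, gave p = 0.00216 (two-sided). This is the smallest value that 6 retinas against 6 allow in such a test. In the immunocompetent line alone the rise was 6.31-fold (3.94 to 10.1, adjusted p = 8.92e-05), where 51.4% of 15412 genes were significant (25.6% higher and 25.8% lower at p60). In the athymic line it was 12.9-fold (8.92 to 18.6, adjusted p = 5.14e-06), where 49.9% of 15507 genes were significant (25.3% higher and 24.6% lower). The rise was therefore found in both lines, and the ages did not overlap in either, although 3 libraries against 3 cannot go below p = 0.1 in the exact permutation test. The larger rise in the athymic line was a difference of 1.03 on the log2 scale (95% interval 0.13 to 1.93), with an unadjusted p of 0.0274 and an adjusted p of 0.453 from edgeR's quasi-likelihood test, so the lines were not shown to differ.

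**Figure D2:**
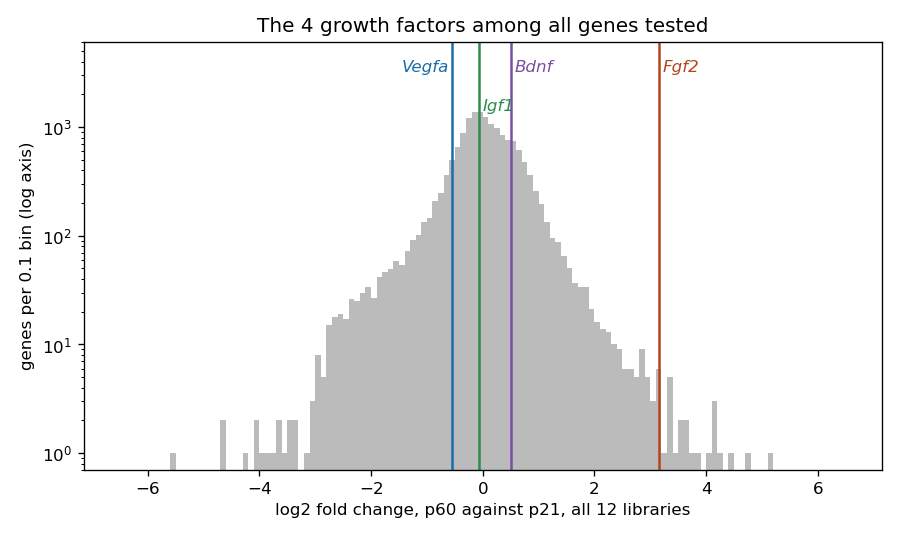
Number of genes by log2 fold change between p60 and p21 over all 12 libraries (horizontal axis: log2 fold change; vertical axis: genes per bin of 0.1, log axis), with the growth factors as vertical lines. *Fgf2* at 3.16 lies in the far right tail, whereas *Bdnf* at 0.51, *Igf1* at -0.067 and *Vegfa* at -0.55 lie in the bulk of the 16069 genes.

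*Fgf2* shares its last exon with a gene on the opposite strand. All 253 bases of that exon, of 1269 exonic bases in total, overlap exons of ENSRNOG00000017420 (chromosome 2 from 124134307 to 124149636, minus strand). In the RefSeq annotation of GRCr8 the gene that overlaps *Fgf2* is *Nudt6*, a nudix hydrolase gene known as the *Fgf2* antisense gene. Without a stated strand setting, reads of both genes in this exon cannot be told apart, so the *Fgf2* level is uncertain to that extent. The neighbour had 6.58 to 8.95 normalized CPM at p21 and 19.9 to 27.1 at p60, a change of 1.58 on the log2 scale (standard error 0.087, adjusted p = 2.27e-09, edgeR's quasi-likelihood test). Both genes were thus higher in every p60 library, with the larger change in *Fgf2*. The *Fgf2* to neighbour ratio of normalized CPM was 0.122 to 0.227 at p21 and 0.382 to 0.788 at p60, without overlap.

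**Figure D3:**
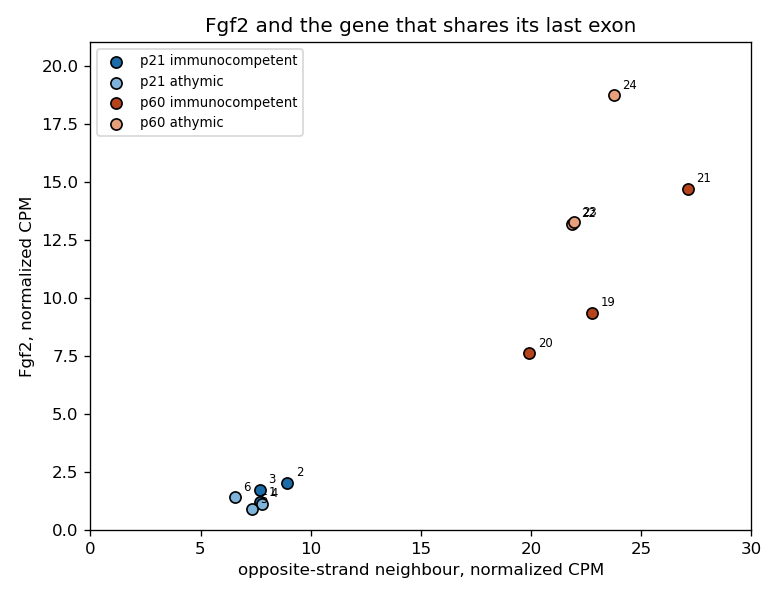
Normalized CPM of *Fgf2* (vertical axis) against that of the opposite-strand gene which shares its last exon (horizontal axis), 1 point per library, numbered as in the sample titles. The p21 libraries gather at 6.58 to 8.95 on the horizontal axis and at 0.897 to 2.03 on the vertical, and the p60 libraries lie above and to the right.

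The start region of *Fgf2* is shown because this gene changed most among the growth factors. The window, from RefSeq on GRCr8 (chr2:122164204-122164503, plus strand), runs from 250 bases before the transcript start to 50 after it.
Fgf2: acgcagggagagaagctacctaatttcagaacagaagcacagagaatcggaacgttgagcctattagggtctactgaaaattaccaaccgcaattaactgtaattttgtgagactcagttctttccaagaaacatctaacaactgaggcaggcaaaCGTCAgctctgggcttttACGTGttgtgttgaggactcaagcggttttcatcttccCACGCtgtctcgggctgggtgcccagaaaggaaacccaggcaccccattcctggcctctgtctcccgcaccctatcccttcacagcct
Capitals mark matches, on either strand, to ACGTG or GCGTG (cores of the element that hypoxia-inducible factors bind), TGACG (part of the cAMP response element) or GGGCGG (the GC box). The *Fgf2* window held 1 ACGTG, 1 GCGTG and 1 TGACG and no GGGCGG. Of all 33469 windows of this length, 19.2% held ACGTG, 29.7% GCGTG, 21.2% TGACG and 33.1% GGGCGG, so such matches are common and describe the sequence only.

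*Bdnf* (ENSRNOG00000047466, chromosome 3 from 100768637 to 100819210, plus strand) rose modestly. At p21, the counts were 113, 117 and 109 in immunocompetent libraries 1, 2 and 3 and 109, 83 and 105 in athymic libraries 4, 5 and 6. At p60, they were 130, 193 and 177 in immunocompetent libraries 19, 20 and 21 and 180, 188 and 176 in athymic libraries 22, 23 and 24. After normalization, 5 of the 6 p60 libraries were above all p21 libraries, and library 19, at 8.58 normalized CPM, lay below library 1 at 8.97. Immunocompetent retinas averaged 8.38 ± 0.532 normalized CPM at p21 and 10.6 ± 1.87 at p60. Athymic retinas averaged 6.90 ± 0.809 and 11.1 ± 0.397 (SD over 3 libraries).

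Over all retinas, *Bdnf* was 1.42-fold higher at p60 (95% interval 1.21 to 1.68, log2 fold change 0.51, standard error 0.11, adjusted p = 9.98e-04, edgeR's quasi-likelihood test). This is an ordinary change in these retinas, since 34.5% of the genes tested changed by as much or more in either direction. The exact permutation test gave p = 0.00433 (two-sided, 6 libraries per age). In the athymic line *Bdnf* was 1.60-fold higher at p60 (1.30 to 1.96, adjusted p = 0.00281), and its 3 p60 libraries did not overlap the p21 libraries. In the immunocompetent line the fold was 1.27 (0.983 to 1.63), which did not pass the threshold (adjusted p = 0.107). That call depended on library 19 and on the scaling. Without library 19 the log2 fold change was 0.47 (adjusted p = 0.0267). With all libraries of this line but counts scaled to library totals alone, it was 0.54 (adjusted p = 0.0185). Without libraries 4, 5 and 22, whose Y counts went against the labelled sex, the athymic log2 fold change was 0.73 and missed the threshold (adjusted p = 0.0637), with 1 library left at p21 and 2 at p60. The lines differed by 0.34 on the log2 scale (-0.10 to 0.78, adjusted p = 0.653), so a difference of either sign remains within the interval.

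*Bdnf* is transcribed from several alternative promoters whose first exons are spliced to a common coding exon. The annotation held 9 merged exons with 6068 exonic bases, of which 3652 are in the last one, and counts were summed over all of them. The level of each promoter's transcripts was therefore not measured. RefSeq gives 6 start windows for *Bdnf*, and the fourth (GRCr8, chr3:116637608-116637907, plus strand) is shown because it alone among them held a match to TGACG.
Bdnf: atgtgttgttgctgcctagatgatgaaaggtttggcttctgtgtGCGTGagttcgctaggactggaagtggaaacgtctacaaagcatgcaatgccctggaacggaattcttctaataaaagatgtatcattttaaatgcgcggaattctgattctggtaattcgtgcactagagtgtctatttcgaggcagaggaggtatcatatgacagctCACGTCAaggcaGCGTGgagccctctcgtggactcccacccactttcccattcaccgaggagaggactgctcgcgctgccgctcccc
The matches to ACGTG and TGACG overlap on the minus strand, where the joint stretch begins at position 214 of the window.

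*Igf1* (ENSRNOG00000004517, chromosome 7 from 28412198 to 28486609, plus strand, 6 merged exons) showed no significant change. At p21, the counts were 333, 322 and 351 in immunocompetent libraries 1, 2 and 3 and 362, 341 and 294 in athymic libraries 4, 5 and 6. At p60, they were 400, 356 and 328 in immunocompetent libraries 19, 20 and 21 and 359, 347 and 420 in athymic libraries 22, 23 and 24. The ages overlapped, at 18.8 to 26.5 normalized CPM at p21 and 20.4 to 26.5 at p60. Over all retinas, the p60 level was 0.955 of the p21 level (95% interval 0.824 to 1.11, adjusted p = 0.585, edgeR's quasi-likelihood test), and the exact permutation test gave p = 0.504 (two-sided, 6 libraries per age). The interval leaves room for a fall of up to 0.28 or a rise of up to 0.15 on the log2 scale. The fold was 0.927 (0.762 to 1.13) in the immunocompetent line and 0.979 (0.778 to 1.23) in the athymic line. The sign of so small a value depended on the scaling, with a log2 fold change of 0.12 over all retinas when counts were scaled to library totals alone.

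At p60, the highest *Igf1* levels were in libraries 19 (26.4 normalized CPM) and 24 (26.5), against 20.4 to 22.6 in the other 4 libraries. These are also the p60 libraries with the highest sums of the 48-gene set described above, whose part in the result was not tested. Without libraries 4, 19 and 24, the log2 fold change was -0.14 (adjusted p = 0.243). In the start window of *Igf1*, none of the 4 motifs was matched.

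*Vegfa* (ENSRNOG00000019598, chromosome 9 from 17340341 to 17355681, plus strand, 8 merged exons) fell. At p21, the counts were 6307, 7686 and 7232 in immunocompetent libraries 1, 2 and 3 and 7511, 7238 and 8129 in athymic libraries 4, 5 and 6. At p60, they were 4729, 5517 and 6056 in immunocompetent libraries 19, 20 and 21 and 6726, 6600 and 5212 in athymic libraries 22, 23 and 24. After normalization, every p60 library was below every p21 library, at 312 to 401 against 500.4 to 547 normalized CPM. Immunocompetent retinas averaged 523 ± 23.3 normalized CPM at p21 and 346 ± 32.6 at p60, and athymic retinas 532 ± 11.5 and 376 ± 41 (SD over 3 libraries).

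Over all retinas, the p60 level of *Vegfa* was 0.684 of the p21 level (95% interval 0.627 to 0.746, log2 fold change -0.55, standard error 0.058, adjusted p = 1.79e-06, edgeR's quasi-likelihood test). The exact permutation test gave p = 0.00216 (two-sided), the smallest value possible with 6 libraries per age. The fall was also significant in the immunocompetent line (0.661, interval 0.586 to 0.747, adjusted p = 2.06e-04) and in the athymic line (0.703, interval 0.622 to 0.795, adjusted p = 7.97e-04). The lines differed by 0.092 on the log2 scale (-0.16 to 0.34, adjusted p = 0.855). As with *Bdnf*, its size was ordinary, since 31.5% of the genes tested changed by as much or more. The lowest p60 levels were in libraries 19 (312) and 24 (329), and without libraries 4, 19 and 24 the log2 fold change was -0.47 (adjusted p = 3.45e-06).

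**Figure D4:**
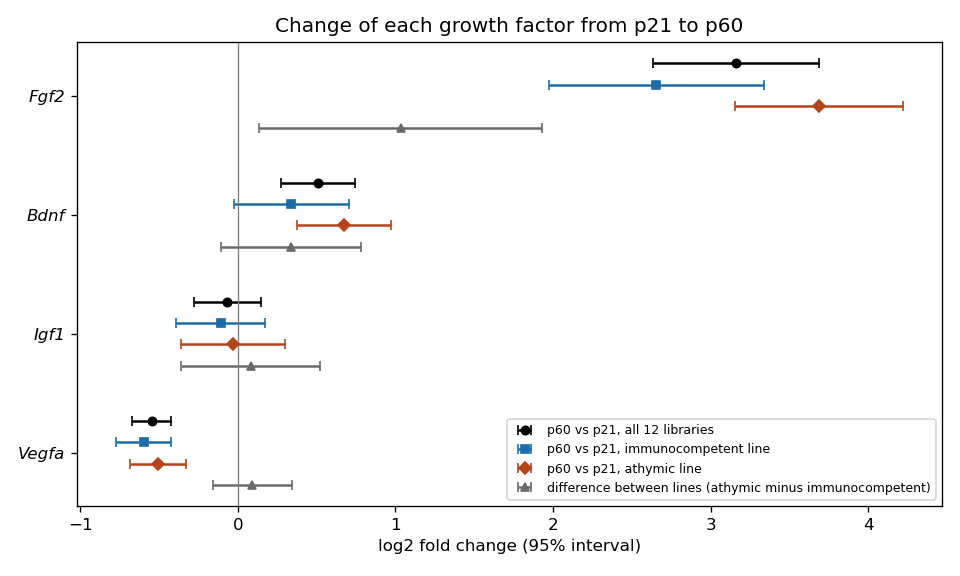
Log2 fold change of each growth factor from p21 to p60 over all 12 libraries and in each line, with the difference between the lines in grey (points: estimates; lines: 95% intervals; vertical line: no change). The *Fgf2* intervals for the change lie above 0 and the *Vegfa* intervals below 0, whereas the *Igf1* intervals span 0.

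The start window of *Vegfa* is shown as that of the growth factor that fell. It was the first of 2 windows in RefSeq (GRCr8, chr9:22452604-22452903, plus strand).
Vegfa: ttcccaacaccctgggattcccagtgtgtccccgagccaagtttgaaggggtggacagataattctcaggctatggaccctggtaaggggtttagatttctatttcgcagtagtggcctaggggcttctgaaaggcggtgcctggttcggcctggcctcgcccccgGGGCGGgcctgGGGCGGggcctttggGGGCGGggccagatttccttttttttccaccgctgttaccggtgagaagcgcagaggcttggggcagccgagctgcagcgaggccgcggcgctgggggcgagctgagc
This window held 3 matches to GGGCGG, which begin at positions 167, 178 and 193 of the 300-base window. It held none to the other 3 motifs, each of which was matched in the *Fgf2* window. The second *Vegfa* window held no match to any of them. Bases further than 250 before these starts were not searched, so matches there would be missed. Whether any match bears on the change of either gene was not tested.

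Of the 4 growth factors, 3 were significant over all 12 retinas, where 62% of all genes were, with 2 higher at p60 (31.7% of all genes were higher) and 1 lower (30.3% were lower). The comparison of athymic with immunocompetent retinas over both ages gave log2 fold changes of 0.15 for *Fgf2*, -0.10 for *Bdnf*, -0.053 for *Igf1* and 0.072 for *Vegfa*. None was significant (adjusted p between 0.678 and 0.898, edgeR's quasi-likelihood test). The widest interval was that of *Fgf2*, at -0.36 to 0.65. In this comparison edgeR called 0 of 16069 genes (0%), with 1904 at an unadjusted p under 0.05, and DESeq2 called 261. For the difference in age change between the lines, edgeR called 1 gene (0.00622%), which was no growth factor, and DESeq2 called 146.

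Levels of different genes were compared as normalized CPM per kilobase of exon. *Vegfa* was the most abundant growth factor in all 12 libraries, at 149 ± 4.86 per kilobase in p21 retinas and 102 ± 10.4 in p60 retinas (SD over 6 libraries), above 97.2% and 96.1% of the genes tested. *Igf1* was near the middle of all genes, at 12.5 ± 1.64 and 12 ± 1.42, above 54.6% and 53.7% of genes. *Bdnf*, divided by all of its 6068 exonic bases, was low at both ages, at 1.26 ± 0.167 and 1.79 ± 0.203, above 15.1% and 17.9% of genes. *Fgf2* moved from 1.10 ± 0.33 at p21, above 13.9% of genes, to 10.1 ± 3.11 at p60, above 48.8% of genes.

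*Fgf2* thus moved up among the growth factors with age, but the order did not change in every library. The order *Vegfa*, *Igf1*, *Fgf2*, *Bdnf* was found in 3 libraries at p21 and in 4 at p60. At p21, *Vegfa* was followed by *Igf1* in each library. By full exonic length *Fgf2* and *Bdnf* did not separate at p21, with *Bdnf* above *Fgf2* in 3 libraries and below it in 3. The *Bdnf* length of 6068 bases includes alternative first exons that are not joined in the same transcript. Its level per kilobase can therefore be too low. The p21 order of *Fgf2* and *Bdnf* and the ratio between them depend on that length, and a shorter one was not tested. At p60, *Fgf2* was above *Bdnf* in all 6 libraries and did not separate from *Igf1*, above which it lay in 2 of 6. When all *Fgf2* counts were kept but only its 1016 exonic bases that no other gene shares were used as its length, *Fgf2* was above *Igf1* in 4 of 6. Any counts in the shared exon were not taken out, so the *Fgf2* level by this length can be too high. The median ratio of *Vegfa* to *Fgf2* per kilobase was 141 at p21 (91.7 to 216) and 10.8 at p60 (6.28 to 16.5). The median ratio of *Fgf2* to *Bdnf* was 0.852 (0.635 to 1.23) and 5.73 (2.97 to 8.07) at these ages.

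**Figure D5:**
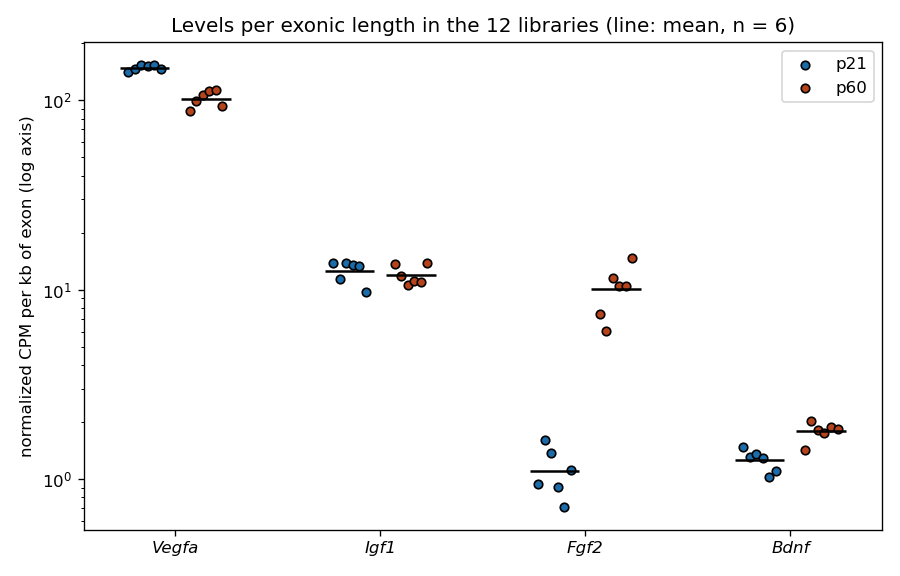
Normalized CPM per kilobase of exon (log axis) of each growth factor in the p21 and p60 libraries (points: libraries; lines: mean of 6). *Vegfa* lies at 88 to 154 in all libraries and *Fgf2* lies at 0.707 to 1.60 at p21 and nearer to *Igf1* at p60, below it in 4 libraries and above it in 2.

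Over the 6 libraries of an age, which pool the lines, the spread between retinas exceeded counting error for each growth factor at both ages. At p60, the coefficient of variation of *Fgf2* over the 6 libraries was 30.8%, where counting alone would give 6.97%, and that of *Vegfa* was 10.2% against 1.31%. At p21, with 12 to 30 counts per library, the coefficient for *Fgf2* was 29.9% against 22.5% from counting, so much of the scatter in its p21 level was of the size that depth alone gives. For *Vegfa*, the coefficient was 3.27% at p21 against 1.17% from counting. Within single groups of 3 libraries, the coefficient was not always above counting error. It was 22.1% against 24.5% for *Fgf2* in athymic p21 libraries. For *Bdnf* it was 6.35% against 9.41% in immunocompetent p21 libraries and 3.59% against 7.43% in athymic p60 libraries. In every other group it was above counting error.

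For each growth factor, the gene with the most similar pattern was sought among the other 16068 genes tested, as the smallest root mean square difference of log2 normalized CPM over the 12 libraries after each gene was centred on its mean. For *Fgf2* it was ENSRNOG00000011913 (chromosome 2 from 104744461 to 104799853), with a difference of 0.32, where the median over all genes was 1.64. It rose from 53.4 to 74.4 normalized CPM at p21 to 370 to 582 at p60, at a higher level than *Fgf2*. For *Bdnf* it was ENSRNOG00000050169 (chromosome 12 from 2170630 to 2173251), with a difference of 0.11 against a median of 0.40. Its range was 25.9 to 31.1 normalized CPM at p21 and 33.6 to 44.0 at p60. For *Igf1* it was ENSRNOG00000056011 (chromosome 6 from 78172762 to 78180924), with a difference of 0.10 against 0.33, at 13.2 to 17 and 12.7 to 15.4 normalized CPM. For *Vegfa* it was ENSRNOG00000021718 (chromosome 5 from 8761293 to 8864578), which fell from 116 to 128 normalized CPM at p21 to 73 to 97.2 at p60, with a difference of 0.041 against 0.41. These differences grow with the size of a gene's change and with counting noise, so they do not rank the growth factors against each other.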

How the data were processed

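Whole retinas were sequenced in 12 poly(A)-enriched libraries with paired-end reads. Per the submitters' processing notes, the reads were mapped with STAR 2.5.2b to Rnor_6.0 and counted with featureCounts from Subread 1.5.2. The authors deposited raw counts per Ensembl gene, without normalization. The strand setting and the treatment of reads with several positions are not given in the sources used here.

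The counts were tested in edgeR 4.0.16 under R 4.3.3, with DESeq2 1.42.0 as the alternative tool. Figures were made in matplotlib 3.10.9. Low genes were removed with filterByExpr (minimum count 10, minimum total 15) and libraries were scaled with TMM. Each comparison was fitted across all genes with edgeR's quasi-likelihood test, adjusted by Benjamini-Hochberg at 0.05. Standard errors were derived from the F statistic, and 95% intervals from the same fit. The fit was tested on simulated data. Values per kilobase divide normalized CPM by the exonic length in the files. For permutation tests and pattern similarity, log2 values used a pseudocount of 0.5 counts.

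The identifiers of the 4 growth factors came with their symbols and chromosomes, which the files' chromosomes matched. The growth factors, the libraries left out and the lists were chosen with earlier results of these data known. Of 32883 identifiers, 0 matched the RefSeq gene table, so the lists of 124 pathway and marker genes were not analysed here. For the same reason, 1 gene of similar pattern was named per growth factor. This was the gene with the smallest root mean square difference of centred log2 values. The alternatives were other scaling (RLE, total counts), other filters, DESeq2, no line term, 1 model of the 4 groups, leaving out each library, and leaving out libraries 4, 19 and 24 (the highest sums of the 48-gene set) or 3, 4, 5 and 22 (chosen from an earlier look at sex-chromosome counts; in Y counts library 3 did not stand apart).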

Additional observations from a re-analysis of the deposited data

How the results depend on the processing

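The values here are log2 fold changes. The 20 results (4 growth factors in 5 comparisons) were recomputed under 348 alternatives in all, and 328 of these kept the direction and the side of the threshold. Within a line, leaving out a set of libraries can be the same fit as leaving out 1 of them, and such repeats are included in these numbers. The rise of *Fgf2* (2.98 to 3.35) and the fall of *Vegfa* (-0.58 to -0.36) over all retinas kept both in each of 21 alternatives, as did the rise of *Bdnf* (0.46 to 0.70). Scaling to total counts alone moved the median of all genes over all retinas from 0.015 to 0.20. Under it, *Igf1* was 0.12 over all retinas, 0.088 in the immunocompetent line and 0.16 in the athymic line, all opposite in sign to the main value, and *Bdnf* in the immunocompetent line reached the threshold at 0.54. *Bdnf* in that line also reached it at 0.47 without library 19, the only one of libraries 4, 19 and 24 in that line. Without all 3 of these, the line difference of *Fgf2* over both ages was -0.035. Without libraries 3, 4, 5 and 22, *Igf1* was 0.084 over all retinas and 0.33 in the athymic line, and *Bdnf* in the athymic line was 0.73 and no longer significant, in a fit with 1 library at p21 that is assumed to vary like those at p60. Leaving out each library in turn gave 0.23 to 0.47 for *Bdnf* in the immunocompetent line, where the highest value, without library 19, was significant. It gave -0.17 to 0.038 for *Igf1* in the athymic line, -0.073 to 0.19 for the difference of its age change between the lines, -0.11 to 0.014 for *Igf1* between the lines, and -0.025 to 0.27 for *Fgf2* between the lines. Apart from the scaling and the libraries left out, the cause was not tested. The other settings for pathway lists were not run, since no symbols could be matched. No paired analysis was possible because the groups share no library number.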
